A study of Mus musculus with 6 samples.

Results

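The genes described here are 10 genes of antigen presentation by the major histocompatibility complex (MHC), chosen by name from 38355 genes listed in whole mouse cortex. Of them, 7 belong to the class I route: B2m, H2-K1, H2-D1, H2-T23, Tap1, Tap2 and Tapbp. The other 3 belong to the class II route: Cd74, H2-Aa and H2-Ab1. All 10 were among the 17120 genes with enough counts to be tested. RNA was sequenced from frozen cortical hemispheres of wild-type C57BL/6 mice that carried no transgene and received no treatment, with 3 animals at 6 months (young) and 3 at 16 months (aged). One protocol note names 3 months for the younger age, while the title, source and age of each sample give 6 months. The question was how the levels of these genes differ between the young and the aged cortex.

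MHC class I molecules sit on the surface of almost all nucleated cells and show short peptides, made by the proteasome in the cytosol, to CD8 T cells. A polymorphic heavy chain pairs with beta-2 microglobulin, and the peptide reaches it in the endoplasmic reticulum through the TAP transporter and the peptide loading complex. MHC class II molecules are made mainly by professional antigen-presenting cells, in the brain by microglia, border macrophages and dendritic cells, and show peptides from endosomes to CD4 T cells. Neurons and glia of the healthy brain hold little of either class, and interferon-gamma is the best known inducer of both.

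All 10 genes had lower mean levels in the aged cortex, and the differences were small. In edgeR's quasi-likelihood test, adjusted over all tested genes by the Benjamini-Hochberg method, 0 of the 7 class I genes and 1 of the 3 class II genes passed an adjusted p of 0.05. Over all tested genes, 1.67% passed in either direction and 0.888% passed as lower at 16 months. The gene that passed was Cd74, whose level fell by 0.69 on the log2 scale. The median log2 fold change was -0.25 over the class I genes and -0.57 over the class II genes, against 0.0014 over all tested genes, of which 49.7% had a negative value. At an unadjusted p under 0.05 from the same edgeR test, 6 of 7 class I and 3 of 3 class II genes were lower, against 8.88% of all tested genes. In 7 of the 10 genes every aged sample lay below every young sample, which was so for 11.5% of all tested genes.

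The promoters of B2m, H2-K1 and H2-Aa are printed to show motifs known from the control regions of both classes. They were taken from RefSeq on GRCm38.p6 and hold the 250 bases before an annotated start, 5′ to 3′ on the gene's strand. Capitals mark matches, on either strand, to 4 motifs. These are AANNGAAA, a core bound by interferon regulatory factors, GGGATTCCC, a kappaB site of NF-kappaB, TGACG, the core of the X2 box, and GATTGG, the core of the Y box. The X2 and Y boxes are parts of the module through which NLRC5 acts on class I genes and CIITA on class II genes.
B2m, chr2:122147437-122147686, plus strand: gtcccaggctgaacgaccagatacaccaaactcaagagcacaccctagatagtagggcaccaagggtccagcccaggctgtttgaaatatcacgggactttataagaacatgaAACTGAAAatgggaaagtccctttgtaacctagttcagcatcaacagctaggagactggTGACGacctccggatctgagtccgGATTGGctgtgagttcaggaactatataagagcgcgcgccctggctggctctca
H2-K1, chr17:34000348-34000597, minus strand: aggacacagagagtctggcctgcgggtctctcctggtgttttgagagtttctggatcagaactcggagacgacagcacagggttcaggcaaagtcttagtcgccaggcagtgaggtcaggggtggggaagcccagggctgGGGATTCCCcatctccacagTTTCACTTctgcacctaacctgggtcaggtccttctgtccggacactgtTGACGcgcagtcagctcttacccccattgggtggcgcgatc
H2-Aa, chr17:34287824-34288073, minus strand: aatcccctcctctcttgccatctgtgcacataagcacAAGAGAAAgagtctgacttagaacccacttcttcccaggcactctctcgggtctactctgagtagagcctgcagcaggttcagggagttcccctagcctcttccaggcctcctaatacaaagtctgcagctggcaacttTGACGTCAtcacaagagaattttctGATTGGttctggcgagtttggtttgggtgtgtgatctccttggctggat

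The RefSeq table held promoters for 7 of the 10 genes, namely B2m, H2-K1, H2-D1, H2-T23, Tap1, Tapbp and H2-Aa. In the B2m promoter the interferon regulatory factor element lay 137 to 130 bases before the start, the X2 core 78 to 74 bases and the Y box core 54 to 49 bases before it. The H2-K1 window printed above holds an interferon regulatory factor element, a kappaB site and an X2 core but no Y box match. In H2-Aa the X2 core lay 74 to 70 bases and the Y box core 49 to 44 bases before the start, and a second X2 match on the other strand overlapped the first. Of 32851 promoters of that length, 21.3% held AANNGAAA, 17.8% TGACG, 14.6% GATTGG and 0.301% GGGATTCCC. A kappaB match was present in H2-K1 and H2-D1 among the 7 genes. Only 3 promoters, or 0.00913%, held all 4 motifs, and these were H2-K1 counted from a second annotated start, H2-D1 and H2-Q7, another class I gene. The H2-D1 window lies before the RefSeq start but inside the first exon of a longer GENCODE transcript, so it is a promoter by the RefSeq start alone. Between the kappaB site and the Y box, H2-K1 and H2-D1 shared 108 identical bases over stretches of 124 and 123 bases (87.1% identity). H2-T23 and Tap1 held 2 of the 4 motifs each and Tapbp held 0. These matches describe letters only, and no binding was measured here.

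Counted reads per sample ranged from 29797253 to 46519280, so that 3 counts corresponded to 0.0645 to 0.101 CPM, the counts of a gene scaled to a common library size, which is the unit of the levels below. The biological coefficient of variation over all tested genes was 6.40%. Samples of 1 age differed by more than sampling noise in every pair, so no library was counted as a duplicate. Aged samples 1 and 2 stood apart in opposite directions, since the deviation of each gene from the mean of its age followed its GC content with r = 0.599 in aged sample 1 and r = -0.591 in aged sample 2 (across genes), against -0.129 to 0.161 in the other 4 samples. The values of the 10 genes and the calls of other genes of the pathway are therefore also given with these samples left out or with offsets for GC content and length, while sums, ratios and the other marker values are given for all 6 samples without offsets. The labelled tissue carried its markers, with all 9 genes of cortical neurons tested and summing to 10400 ± 18 CPM (SD, n = 3) at 6 months and 10900 ± 122 CPM at 16 months. In whole tissue, fewer cells of a type and less RNA per cell cannot be told apart.

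B2m encodes beta-2 microglobulin, the invariant light chain of every classical class I molecule (chromosome 2). Its level was 105.4, 110.6 and 116.2 CPM in the young samples and 72.7, 97.59 and 89.45 CPM in the aged samples. The ages did not overlap, and aged sample 1 was far below the rest. The mean went from 110.7 ± 5.38 to 86.58 ± 12.7 CPM (SD, n = 3 per age), a log2 fold change of -0.36 ± 0.0952 (SE) with an adjusted p of 0.099 in edgeR.

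H2-K1 and H2-D1 encode the heavy chains of H-2K and H-2D, the classical class I molecules of this strain (chromosome 17). H2-K1 was at 23.23, 23.5 and 24.41 CPM in the young and 20.7, 20.29 and 18.94 CPM in the aged samples. Again the ages did not overlap. The log2 fold change was -0.25 ± 0.0613 (SE), with an adjusted p of 0.080 in edgeR. H2-D1 was at 35.43, 33.47 and 34.61 CPM against 32.88, 26.86 and 28.63 CPM. Aged sample 1 came close to the lowest young sample, while the other two aged samples were clearly lower. Its log2 fold change was -0.23 ± 0.0762 (SE), with an adjusted p of 0.169 in edgeR.

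H2-T23 encodes Qa-1, a non-classical heavy chain that presents leader peptides of other class I molecules to the NKG2A receptor of natural killer and T cells. It was at 15.64, 15.97 and 15.38 CPM at 6 months and at 15.02, 13.85 and 12.18 CPM at 16 months, with no overlap. The 3 young samples lay within a narrow band, and the aged ones spread below it. The log2 fold change was -0.19 ± 0.0814 (SE), with an adjusted p of 0.256 in edgeR. Without aged sample 3 it shrank to -0.12, with an adjusted p of 0.616.

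Tap1 and Tap2 encode the subunits of the transporter that pumps cytosolic peptides into the endoplasmic reticulum. Tap1 was at 3.456, 2.8 and 3.099 CPM in the young and 2.896, 1.946 and 2.137 CPM in the aged samples, so that aged sample 1 lay above young sample 2. Its log2 fold change of -0.43 was the largest of the class I genes, with an SE of 0.157 and an adjusted p of 0.197 in edgeR. Tap2 was at 9.066, 7.8 and 8.343 CPM against 7.572, 6.253 and 6.617 CPM. The Tap2 levels did not overlap, and the same aged sample was the highest of its age for both subunits. The Tap2 log2 fold change was -0.31 ± 0.0956 (SE), with an adjusted p of 0.145 in edgeR. Tapbp encodes tapasin, which bridges TAP to empty class I molecules. It was at 25.64, 25.53 and 26.29 CPM against 25.88, 22.49 and 25.59 CPM, with overlapping ages. Its log2 fold change of -0.07 ± 0.0672 (SE) was the smallest of the 10 genes, with an adjusted p of 0.661 in edgeR. It was -0.01 without aged sample 2 and -0.10 without aged sample 1.

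Cd74 encodes the invariant chain, which blocks the class II groove during assembly and guides the molecule to endosomes. Its level was 4.245, 4.1 and 3.886 CPM at 6 months and 2.685, 2.074 and 2.811 CPM at 16 months, from 65 to 199 counts per sample. Every aged sample lay well below every young one. The mean fell from 4.077 ± 0.181 to 2.523 ± 0.394 CPM (SD, n = 3 per age), so it decreased by 38.1%. The log2 fold change was -0.69 ± 0.124 (SE), with an adjusted p of 0.0261 in edgeR. This call depended on single libraries. It was kept without aged sample 1 or aged sample 2 and was lost without any 1 of the other 4 samples. The adjusted p-values in edgeR were 0.142, 0.126 and 0.124 without young samples 1, 2 and 3 and 0.0869 without aged sample 3. In those 4 sets 0.277% to 0.335% of all tested genes were called, against 1.67% with all 6 samples. The share was 5.73% without aged sample 1 and 12.7% without aged sample 2. Across the 6 reduced sets the log2 fold change of Cd74 ranged from -0.77 to -0.57.

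H2-Aa and H2-Ab1 encode the alpha and beta chains of I-A, the class II molecule of this strain, which carries no functional I-E. H2-Aa was at 2.133, 1.267 and 2.074 CPM in the young and 1.116, 1.372 and 1.288 CPM in the aged samples. Young sample 2, with 38 counts, lay within the aged range. Its log2 fold change was -0.57 ± 0.207 (SE), with an adjusted p of 0.196 in edgeR. H2-Ab1 was at 1.301, 1.467 and 1.406 CPM against 1.237, 1.053 and 0.5563 CPM. The ages did not overlap, and aged sample 3, with 19 counts, was far below the other two. The log2 fold change was -0.55 ± 0.243 (SE), with an adjusted p of 0.278 in edgeR. Without aged sample 3 the H2-Ab1 value shrank to -0.27. The chains thus differed in which aged sample was lowest, sample 1 for H2-Aa, sample 3 for H2-Ab1 and sample 2 for Cd74.

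**Figure D1:**
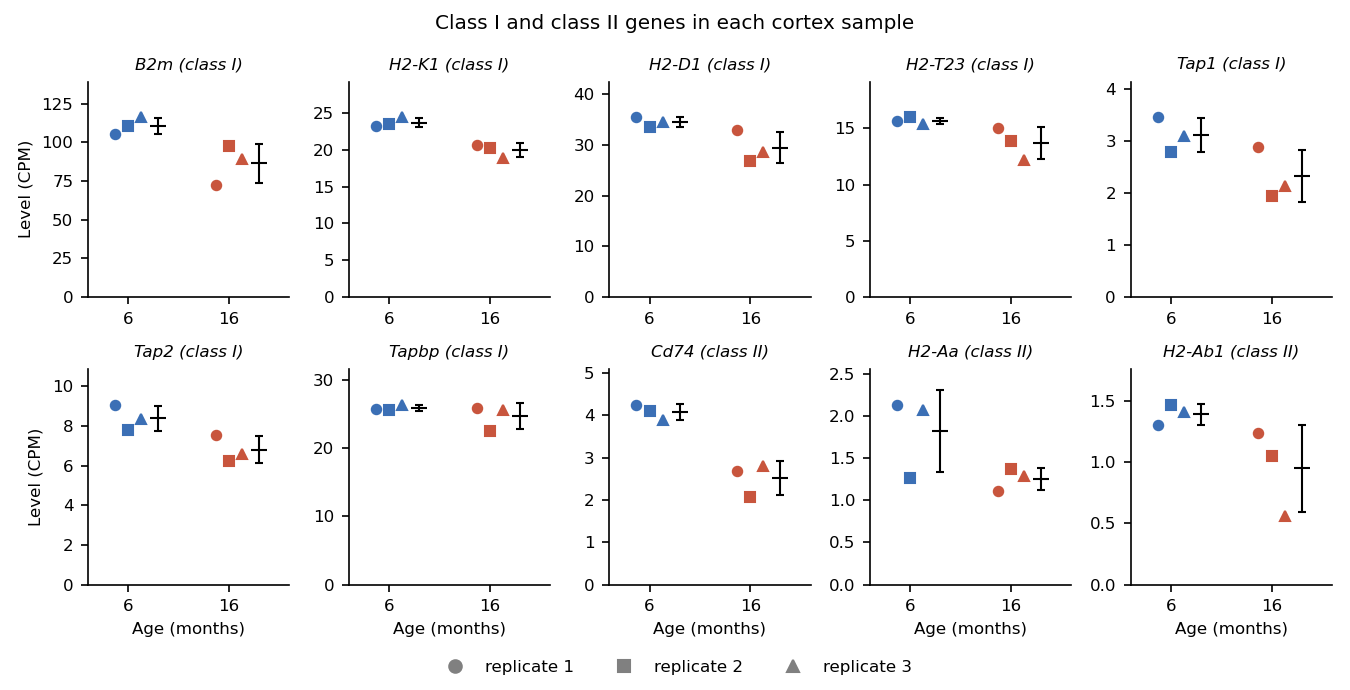
Level in CPM (vertical axes, each from 0) of the 7 class I and 3 class II genes at 6 and 16 months (horizontal axes). Symbols are single samples and black bars the mean ± SD of 3; the ages overlap in Tap1, Tapbp and H2-Aa and are apart in the other 7 genes.

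To compare genes with each other, levels were divided by the length of the main coding transcript. At 6 months B2m was the most abundant by far, at 129 CPM per kilobase, followed by H2-D1 at 16.4, H2-K1 at 14.6, H2-T23 at 10.6 and Tapbp at 8.91 CPM per kilobase. The level of B2m per length thus exceeded that of each heavy chain several-fold. The class II genes were scarcer, with Cd74 at 2.89, H2-Aa at 1.62 and H2-Ab1 at 1.15 CPM per kilobase. The transporter subunits fell in the same range, with Tap2 at 2.44 and Tap1 at 1.06 CPM per kilobase. Neighbours in this order were apart in all young samples except H2-Aa from H2-Ab1 and H2-Ab1 from Tap1. At 16 months B2m was at 101, H2-D1 at 14 and H2-K1 at 12.3 CPM per kilobase, and Cd74, at 1.79, came after Tap2, at 1.98 CPM per kilobase. In the aged samples H2-D1 overlapped H2-K1, H2-T23 overlapped Tapbp, Tap2 overlapped Cd74 and Tap1 overlapped H2-Ab1. Per length the invariant chain thus exceeded each I-A chain at both ages.

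Summed over the 7 class I genes, the level was 217.9, 219.7 and 228.3 CPM in the young and 177.6, 189.3 and 183.5 CPM in the aged samples, 17.3% lower at 16 months. Over the 3 class II genes it was 7.679, 6.834 and 7.366 CPM against 5.038, 4.499 and 4.655 CPM, 35.1% lower. Neither sum overlapped between the ages. Class II over class I was 3.29% ± 0.214 (SD, n = 3) at 6 months and 2.58% ± 0.233 at 16 months, also without overlap. An exact two-sided permutation test of 3 against 3 samples cannot give a p below 0.1. B2m was the largest single part of the class I sum. The ratio of B2m to H2-K1 plus H2-D1 was 1.80, 1.94 and 1.97 in the young and 1.36, 2.07 and 1.88 in the aged samples, so that the ages overlapped and aged sample 1 lay below all others. H2-D1 over H2-K1 was 1.46 ± 0.0602 at 6 and 1.47 ± 0.136 at 16 months.

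Markers of the cells that carry these molecules were set beside the sums. The 14 microglial markers, all tested, summed to 616 ± 12.1 CPM (SD, n = 3) at 6 months and 614 ± 10.2 CPM at 16 months, with ranges of 602 to 624 and 607 to 626 CPM. Of these, 1 was called, Aif1 (the calcium-binding protein IBA1), which was lower with a log2 fold change of -0.43 and an adjusted p of 0.0418 in edgeR. At an unadjusted p under 0.05 in edgeR were 4 of 14, Aif1 and Trem2 lower and Csf1r and Fcrls higher, so the sum holds opposite shifts. Csf1r, the receptor that keeps microglia alive, had a log2 fold change of 0.25 and an adjusted p of 0.0926. Relative to the microglial sum, class II was at 1.18% ± 0.0508 in the young and 0.770% ± 0.0322 in the aged samples, and class I was at 0.361 ± 0.00837 and 0.299 ± 0.0142 of it. Since the microglial sum differed by 0.193% between the ages, these ratios restate the sums of the classes, and the part of microglia in the lower levels was not tested.

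The 8 markers of border macrophages summed to 13.1 to 13.9 CPM at 6 months and 12.0 to 13.6 CPM at 16 months, with 0 of 8 called in edgeR and 3 of 8 at an unadjusted p under 0.05. Of 14 markers of dendritic cells, B cells and T cells, 5 had enough counts to be tested. The sum of all 14 was 39.8 to 40.3 CPM against 35.7 to 40.0 CPM, and Flt3, Zbtb46 and Cd4 made up most of it. It therefore follows these genes and says little about the scarcer markers or about the number of these cells. One of the 5 was called, Itgax (CD11c, an integrin of dendritic cells and activated microglia), which went from 17 to 33 counts per young sample to 2 to 6 counts per aged sample, a log2 fold change of -2.28 ± 0.349 (SE) with an adjusted p of 0.0133 in edgeR. Cd209a, a lectin of dendritic cells, was at 22 to 46 counts against 8 to 20 counts, with a log2 fold change of -1.15 and an adjusted p of 0.107. The other 3 tested markers were more abundant, with log2 fold changes of -0.07 for Flt3, -0.06 for Zbtb46 and 0.14 for Cd4 and adjusted p-values of 0.657, 0.703 and 0.462 in edgeR. Cd3e, which marks T cells, had at most 3 counts in any sample. The part of these cells in the lower class II levels was not tested.

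Endothelial cells, which carry much of the class I protein of the brain, had 10 markers tested and 0 called in edgeR, with 3 of 10 at an unadjusted p under 0.05. Their sum was 254 to 256 CPM at 6 and 259 to 270 CPM at 16 months. H2-K1 plus H2-D1 relative to it went from 22.8% ± 0.35 (SD, n = 3) to 18.8% ± 0.897, with no overlap. Markers of blood rose with age, from a sum of 29.3 ± 1.79 to 46.9 ± 2.93 CPM with 2 of 5 called higher, and those of choroid plexus went from 17.0 ± 0.579 to 26.6 ± 1.56 CPM with 1 of 5 tested called higher. Astrocyte markers summed to 5600 ± 171 and 6150 ± 379 CPM with 1 of 6 called, Gfap, which was lower. Of these 6, 5 had an unadjusted p under 0.05 in edgeR, and in 4 every aged sample lay above every young one. Over all tested genes, 8.88% were lower at that p, while the shares that were higher or apart upwards were not counted. The marker counts at an unadjusted p, here and for microglia and border macrophages, thus have no matching share beside them. Oligodendrocyte markers summed to 6860 ± 40.1 and 6880 ± 13.8 CPM with 0 of 6 called in edgeR and 2 of 6 at an unadjusted p under 0.05. No marker in these lists was at 0 in all samples, and the part of blood and choroid plexus in the class I levels was not tested.

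**Figure D2:**
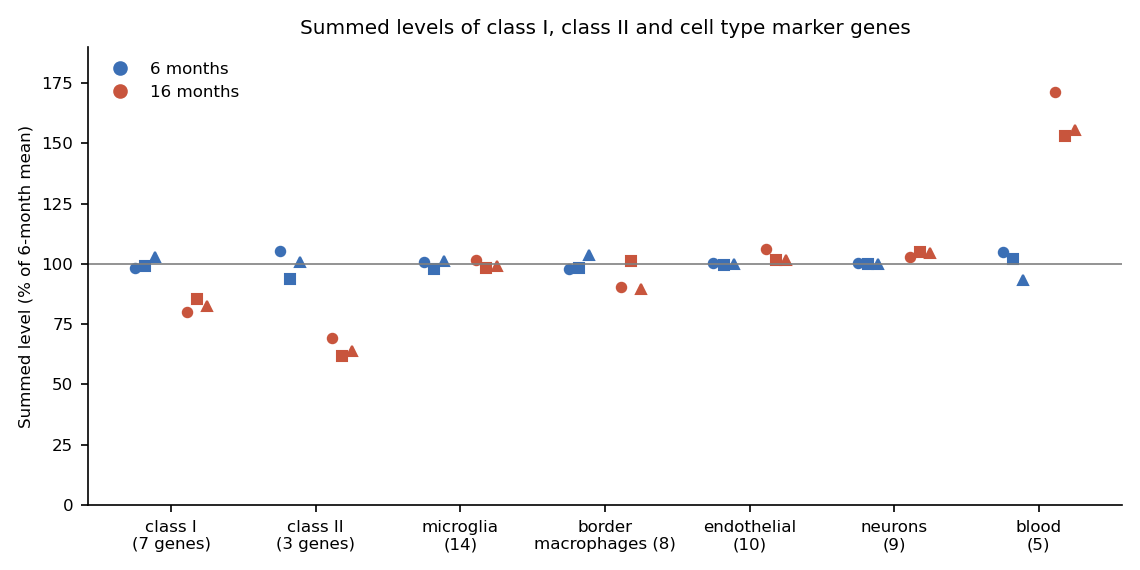
Summed CPM of class I, class II and marker genes in each sample, as a percentage of the 6-month mean (vertical axis from 0), with blue for 6 and red for 16 months and the number of genes listed in brackets. Class I and class II lie below 100 in all 3 aged samples, the microglial sum stays near 100 and the blood sum lies above it.

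The class I result depended on how 2 of the aged libraries were treated. B2m has a GC content of 41.2%, lower than that of most tested genes (percentile 8.21), while the other 9 genes lie between 51.0% and 57.3%. In aged sample 1 B2m was the lowest of its age and H2-K1, H2-D1, H2-T23, Tap1, Tap2 and Tapbp were the highest of theirs. Without aged sample 1, 6 of 7 class I genes were called lower in edgeR, all but Tapbp, with 2.79% of all tested genes called lower. Without aged sample 2, 2 of 7 were called, B2m and H2-K1, with 6.4% called lower. Without any 1 of the other 4 samples the count stayed at 0. DESeq2's Wald test called 1 of 7, B2m, with an adjusted p of 0.0185, and called 0.809% of 27569 genes lower. That set is larger than the 17120 genes tested in edgeR. It holds all genes with a p-value, also those that DESeq2 may leave without an adjusted p, so the shares are not alike in kind.

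When offsets for GC content and length entered the same edgeR fit, 5 of 7 class I genes were called lower, against 7.91% of all tested genes. These were B2m, H2-K1, H2-D1, Tap1 and Tap2. The corrected B2m level was 104.2, 101.4 and 108.7 CPM in the young and 87.39, 90.13 and 93.92 CPM in the aged samples. The aged samples then lay close together, with a coefficient of variation of 3.62% in place of 14.7%. The B2m log2 fold change shrank from -0.36 to -0.21 with an adjusted p of 0.00139. The corrected H2-D1 level was 35.25, 34.15 and 34.91 CPM against 30.3, 28.69 and 28.47 CPM. Here too the aged samples drew together, with a coefficient of variation of 3.42% in place of 10.5%. The log2 fold change of H2-D1 was then -0.26 with an adjusted p of 0.000988, beside -0.25 with 0.00917 for H2-K1. After correction B2m and both classical heavy chains thus differed with age by similar amounts, 0.21 to 0.26 on the log2 scale.

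Tap1 and Tap2 were at -0.48 and -0.37 on the log2 fold change scale after correction, with adjusted p-values of 0.0197 and 0.00392 in edgeR. H2-T23 stayed at -0.19 with an adjusted p of 0.0733 and Tapbp at -0.11 with 0.138. Cd74 was at -0.68 with an adjusted p of 0.00105. H2-Aa and H2-Ab1 remained uncalled, with adjusted p-values of 0.0841 and 0.132. The ages were then apart in 9 of the 10 genes, all but H2-Aa, with every aged sample lower, as in 18.1% of all tested genes after the same correction. For H2-Ab1 the aged coefficient of variation stayed at 34.9%, against 37.1% before, and for H2-K1 it went up from 4.59% to 8.46%, so the offsets did not tighten every gene.

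**Figure D3:**
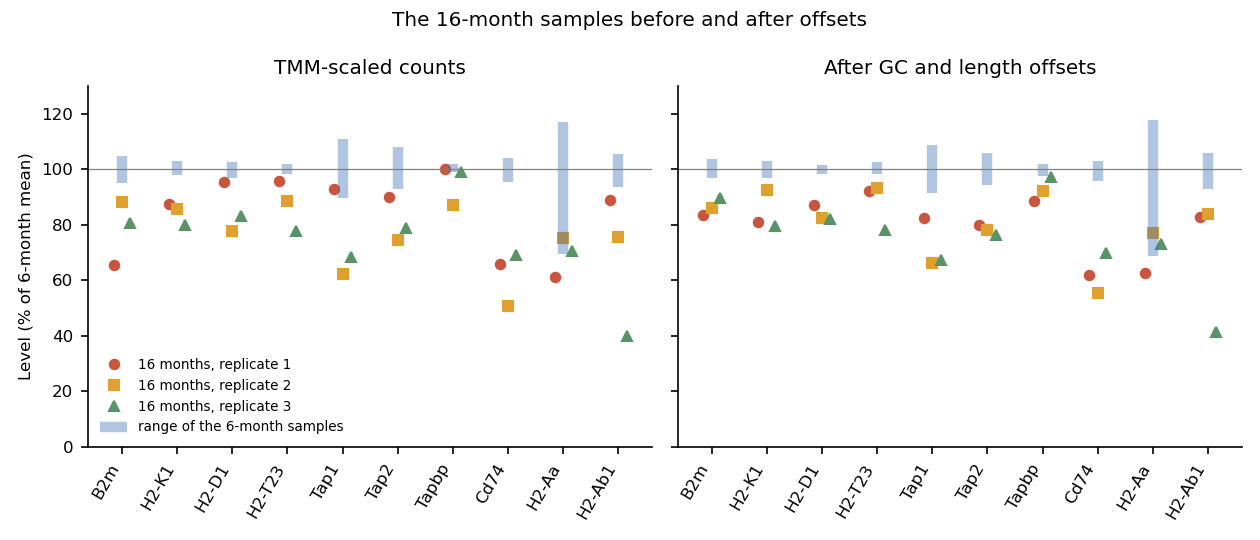
Level of each gene in the 3 aged samples (symbols) as a percentage of its 6-month mean (vertical axis from 0), before (left) and after (right) offsets for GC content and length, with bars for the range of the 3 young samples. The aged B2m values spread before correction and lie close together after it.

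**Figure D4:**
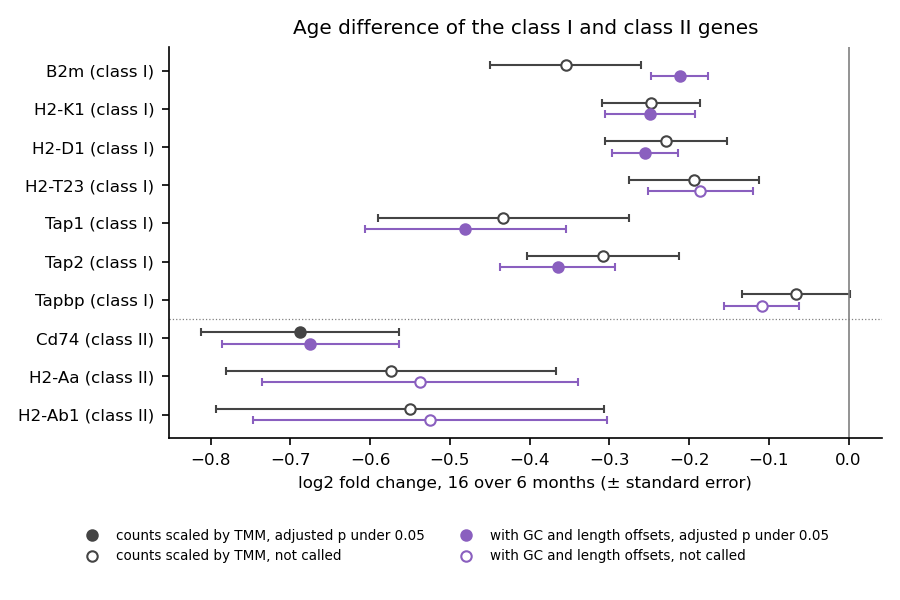
Log2 fold change at 16 over 6 months ± standard error (horizontal axis) of the 10 genes, in grey from the counts scaled for library size and in purple with offsets for GC content and length. Filled points passed an adjusted p of 0.05 in edgeR, only Cd74 in grey and 6 genes in purple, and all points lie below 0.

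Among 19 further class I heavy chain genes and relatives, 17 matched the annotation and 12 were tested. All 12 had negative values, with a median log2 fold change of -0.20, and 2 were called lower. These were H2-Q6 and H2-Q7, which encode Qa-2 type non-classical molecules. H2-Q7 was at 35, 21 and 29 counts in the young and 4, 4 and 10 counts in the aged samples. H2-Q6 was at 39, 30 and 47 counts against 11, 10 and 10 counts. Every aged sample lay below every young one for both genes, with log2 fold changes of -1.95 ± 0.323 and -1.63 ± 0.237 (SE) and adjusted p-values of 0.0193 and 0.0110 in edgeR. Both calls held without aged sample 1, without aged sample 2 and with the offsets, with adjusted p-values of 0.00066 to 0.0136. Windows of 100 bases that match other genes, among them class I genes, make up 13% of the H2-Q6 and 16.4% of the H2-Q7 transcript, so reads could have been split between copies or left uncounted, and these values are uncertain. H2-T10, at 40, 21 and 41 counts against 18, 12 and 19 counts, was the next in size with -0.78 ± 0.234 (SE) and an adjusted p of 0.132.

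The 12 genes of class I peptide supply and loading, among them the immunoproteasome and the chaperones, were all tested, with a median log2 fold change of -0.06 and 1 called, higher. This was Calr, which encodes calreticulin, a chaperone of many glycoproteins besides class I. Calr was at 348.1, 351.9 and 347.4 CPM in the young and 398, 415 and 423.1 CPM in the aged samples, a log2 fold change of 0.24 ± 0.0484 (SE) with an adjusted p of 0.0418 in edgeR. Under the same 3 changes the Calr call held, with adjusted p-values of 6.87e-05 to 0.0105. Nlrc5, the transactivator of class I genes, was at 1.429, 1.067 and 1.502 CPM against 0.724, 0.9571 and 0.9955 CPM. Its ages did not overlap, but the log2 fold change of -0.60 ± 0.199 (SE) had an adjusted p of 0.165. Psmb8, an immunoproteasome subunit induced by interferon, was at -0.46 ± 0.128 (SE) with an adjusted p of 0.106, and its ages did not overlap either.

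Of 18 further class II genes, 16 were tested, 9 with negative and 7 with positive values. Their median log2 fold change was -0.08, and 1 was called, lower. This was Ctss, which encodes cathepsin S, the protease that trims the invariant chain. Ctss was at 92.92, 93.94 and 94.92 CPM in the young and 72.8, 82.08 and 76.54 CPM in the aged samples, a log2 fold change of -0.28 ± 0.0570 (SE) with an adjusted p of 0.0397 in edgeR. The Ctss call held under those changes too, with adjusted p-values of 0.000272 to 0.00974. Ctss is also abundant in microglia. H2-Eb1, the I-E beta chain, was at 1.579, 1.633 and 1.812 CPM against 1.116, 0.9252 and 1.259 CPM, with a log2 fold change of -0.60 ± 0.162 (SE) and an adjusted p of 0.1. H2-DMb1, a chain of the peptide editor H2-M, was at -0.50 with an adjusted p of 0.216. H2-Oa, a chain of its inhibitor, had 3 to 28 counts, and its log2 fold change of -0.91 ± 0.534 (SE) had an adjusted p of 0.417.

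The 13 genes of interferon signalling to MHC, with receptors, kinases and transcription factors, were all tested and 0 were called in edgeR. Of them, 1 had an unadjusted p under 0.05, and the share of all tested genes in either direction was not counted. The median log2 fold change of the 13 genes was 0.014 and their values lay between -0.08 and 0.14. The largest were 0.14 ± 0.0485 (SE) for the kinase Jak1 and 0.14 ± 0.0638 for the receptor chain Ifngr1, with adjusted p-values of 0.179 and 0.304. The kinase Tyk2 was at -0.08 with an adjusted p of 0.591. All of these lie nearer to 0 than the values of H2-K1, H2-D1 and H2-T23. The class I gene Tapbp, at -0.07, lay nearer to 0 than Jak1, Ifngr1 and Tyk2. So did some further class I genes, and the difference between the lists was not tested.

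**Figure D5:**
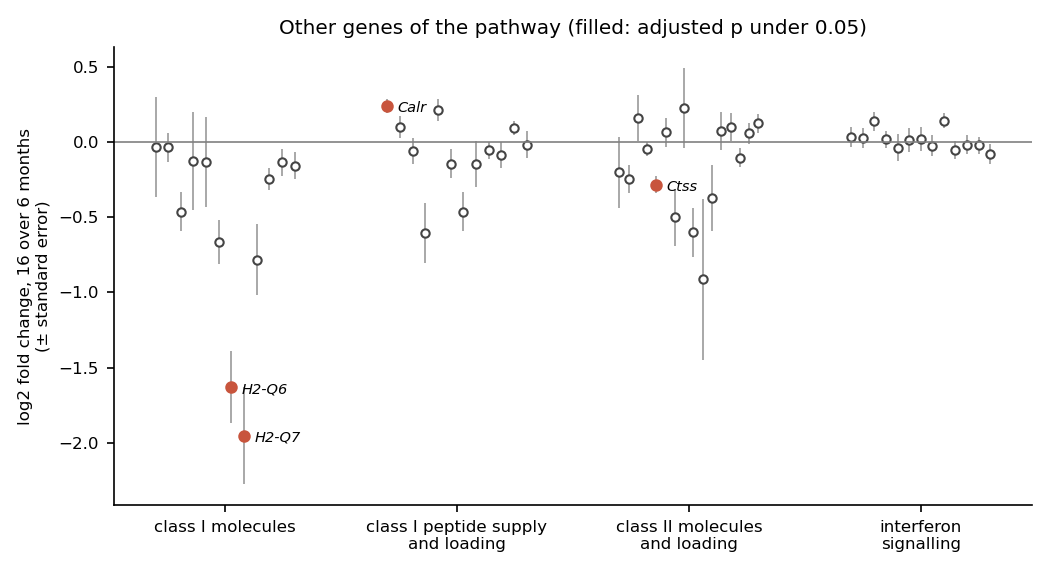
Log2 fold change at 16 over 6 months ± standard error (vertical axis) of the other tested genes of the pathway, grouped by role (horizontal axis). Filled points passed an adjusted p of 0.05 in edgeR: H2-Q6, H2-Q7 and Ctss lower and Calr higher; the 12 class I molecules all lie below 0.

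Genes whose pattern over the 6 samples was most like that of each class were found by Pearson's r, among 14555 genes. It was taken between a gene's log2 level and the log2 of the class's summed level, in which B2m or Cd74 weighs most. Because the ages differ in both, these correlations describe likeness only, and 183 genes had an r over 0.95 with class I and 152 with class II. Nearest to class I were Rrnad1 (r = 0.9969), Rfx4 (r = 0.9961), Lyz2 (r = 0.9955), Rps3a1 (r = 0.9946) and Apod (r = 0.9942). Lyz2 encodes lysozyme of macrophages and other myeloid cells, and its mean level was 13.17 CPM at 6 and 6.557 CPM at 16 months, with a log2 fold change of -1.01 and an adjusted p of 0.000824 in edgeR. Nearest to class II were Mir186, Slc22a4, Pdcd5, Plekhb1 and Ndufa6, with r from 0.9942 to 0.9970.

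Shared sequence and overlapping genes limit how well some of the 10 genes could be counted. No window of 100 bases in the main coding transcripts of B2m, H2-K1, Cd74, H2-Aa and H2-Ab1 matched another gene. Such windows made up 4.64% of H2-D1 and 7.28% of H2-T23, shared with class I genes among others. For Tap1, Tap2 and Tapbp the shared windows, at 3.96%, 5.35% and 14%, were shared mainly with overlapping genes, among them Psmb9 on the opposite strand of Tap1, and for Tapbp also with AC122861.4, which is not among its overlapping genes. Exons of other genes covered 18.5% of Tap2 and 29.0% of Tapbp, mainly on the opposite strand. The strand setting of the counting is not given in the sources used here. Reads that fit several genes were listed as ambiguous and left uncounted. Tap2 and Tapbp could thus have lost reads over these overlaps, and how many is not known.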

How the data were processed

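Whole cortical hemispheres of 3 young and 3 aged C57BL/6 mice were lysed in Trizol, and poly(A) libraries (TruSeq) were sequenced as paired reads on a HiSeq2000. The authors trimmed the reads, mapped them to mm10 with STAR in 2 passes and deposited raw read counts per Ensembl gene, which hold the summary lines of HTSeq. The submitters' processing notes name CASAVA 1.8.2, STAR 2.3.0e and featureCounts 1.5.0-p1, so the sources differ on the counter. Ensembl release and strand setting are not given in the sources used here. Alignments listed as not unique were left uncounted, at 43.42 to 51.4 for every 100 counted, which can lower genes with near-identical copies. Lines that name no gene were left out of library sizes, with reads outside genes making up 21.97 to 27.75% of uniquely mapped ones and ambiguous ones 1.415 to 1.568%. Gene IDs were matched to GENCODE M21 on GRCm38 (36602 of 38355 matched).

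Counts were tested with edgeR 4.0.16 in R 4.3.3 by the quasi-likelihood test without covariates, after TMM scaling (factors 0.988 to 1.01) and edgeR's filter on low counts, with Benjamini-Hochberg adjustment over 17120 genes. Levels are CPM with TMM scaling. The test was tried on simulated data. Alternatives were DESeq2 1.42.0, DESeq2's size factors, no filter, at least 10 counts in every sample, a robust fit, a replicate block, offsets from 20 bins each of GC content and length, and each sample left out. Trying the last of these and the offsets on the called genes of the pathway and marker lists was chosen after seeing the data. The 10 genes, the pathway and marker lists and the motifs were chosen with earlier results of these data known. The values of all 10 genes are given, and other genes of the pathway are named where called or among the 3 with the largest change in their list. Markers are named where a class II or class I value is set beside them, and were chosen after their values were seen. The labels name 1 mouse as the source of each sample and give no litter or batch. The p-values set the age difference against the spread between samples, estimated with information from all tested genes. A litter or batch that differs between the ages could not be told apart from age. The SD and SE values hold the spread between samples, while floors cover counting error only.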

Additional observations from a re-analysis of the deposited data

How the results depend on the processing

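All 10 genes kept a negative log2 fold change under every alternative run. The number of class I genes called, 0 of 7 in edgeR, became 1 without the filter, 1 in DESeq2's Wald test, 5 with GC and length offsets and 0 to 6 with each sample left out. The number of class II genes called, 1 of 3, was 0 to 1 with each sample left out. Over all tested genes, 286 calls (1.67% of 17120) became 648 without the filter (2.35% of 27569) and 471 in DESeq2 (1.71% of 27569 genes with a p-value). They became 2474 with the offsets (14.5%) and 48 to 2211 with each sample left out (0.277% to 12.7%). The count was 995 without aged sample 1 (5.73%) and 2211 without aged sample 2 (12.7%). With the offsets and a block for the replicate number together, 6 class I genes and 3303 of all genes (19.3%) were called. With the replicate number as a block alone, 1 class I gene (B2m) and 783 of all genes (4.57%) were called. The numbers name different mice, and deviations of same-numbered samples correlated at 0.18, 0.0958 and 0.0351, so that pairing is not shown and not every sample correlated best with its own number. DESeq2's size factors, at least 10 counts in every sample and the robust fit changed none of these calls of class I or class II genes. The offsets assume that a link between deviation and GC content is technical, which was not tested, and the cause of the other shifts was not tested. H2-Ab1, at 19 to 61 counts, and H2-Aa, at 37 to 100 counts, are the genes that depth limits most.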
